A study of Mus musculus with 27 samples.

Results

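The fragments described here are pieces of artificial piRNA target RNA that began neither at the 5′ end of the target nor at the position where MIWI cuts it. They were taken from a table that sums the reads of an in vitro slicing assay, over all targets of a pool, by strand, read start and read end. A fragment was included when it lay on the plus strand, started at neither -33 (the 5′ end of the intact target) nor -9 (the first base after the cut) and did not end at -10 (the last base before the cut). This rule used positions only. It kept 744 of 809 plus-strand fragments, out of 1204 fragments listed on both strands. The included fragments began at 38 positions from -32 to 6, ended at 38 positions from -18 to 20 and were 15 to 53 nt long.

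Targets came from 2 pools of 15000 RNAs each, transcribed in vitro with T7 RNA polymerase and designed against abundant 32-nt piRNAs of mouse MIWI. In the Perfect pool each target was fully complementary to its piRNA. In the Bulge pool each target carried a mismatch of 2 nt opposite piRNA nucleotides 10 and 11. The common sequence at the 3′ end of the targets also differed between the pools, so for fragments that lie in it or end in it the mismatch and the 3′ sequence cannot be told apart. Both pools were incubated for 2 h at 35 °C with Strep-tagged MIWI isolated from mouse testes together with its own piRNAs, and each pool gave 2 small RNA libraries. The labels do not say whether a library came from bead-bound or eluted MIWI, nor whether the libraries of a pool were separate reactions, so the p-values below rest on library-to-library spread only, and that spread may be technical. A pool incubated without MIWI was not analysed here.

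MIWI is a PIWI-clade Argonaute of the male germ line that carries pachytene piRNAs as guides. Where guide and target pair through the middle of the piRNA, PIWI proteins cut the target between the bases opposite piRNA nucleotides 10 and 11 and leave a 3′ fragment with a 5′ phosphate. With the cut set between -10 and -9, position 0 lies opposite piRNA nucleotide 1 and -31 opposite nucleotide 32, which leaves 2 positions before the piRNA-complementary part and 20 after it, in a target of 54 positions. This layout, with position 20 as the 3′ end of the targets in both pools, was reckoned from the numbering. It was not checked against the target sequences, which were not used here.

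With the smallest non-zero value of a library taken as 1 read, values, given as RPM (reads scaled to a common library size), stand for totals of 14067166 and 13001408 reads in the Perfect libraries and of 14549950 and 13620898 reads in the Bulge libraries. The slicing table held 281514 and 283103 RPM in Perfect and 34361 and 27658 RPM in Bulge, of which the plus strand took 106248 and 134881 RPM in Perfect and 26687 and 19710 RPM in Bulge. The plus strand as a whole was therefore higher in Perfect, by 2.38 on the log2 scale. Fragments that started at the cut stood at 19665 and 15929 RPM in Perfect, against 79.6 and 45.2 RPM in Bulge.

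Fragments from other starts were more abundant in the Perfect pool. They summed to 43822 and 38856 RPM in the Perfect libraries, against 7153 and 4187 RPM in the Bulge libraries, with no overlap. The pool means were 41339 ± 3512 and 5670 ± 2098 RPM (SD, n = 2 each), a ratio of 7.29. The exact two-sided permutation p was 0.333, the smallest that 2 libraries against 2 allow. As a share of all plus-strand signal the fragments took 41.2% and 28.8% in Perfect, against 26.8% and 21.2% in Bulge, so most of the ratio was shared with the plus strand as a whole (exact permutation p = 0.333). Of the 744 fragments, 743 had signal in each Perfect library, and 741 and 683 had signal in Bulge libraries 1 and 2. A value of 0 allows up to 3 reads, or 0.206 to 0.231 RPM in these libraries, for counting error only.

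The makeup of the fragments differed between the pools more than their total did. In Perfect, 87.3% and 86.6% of their signal ended at position 20, the 3′ end of the target, against 13.6% and 5.19% in Bulge. In RPM, fragments ending at 20 stood at 38239.9 and 33643 in Perfect, against 971 and 217 in Bulge. The fragments ending anywhere else overlapped between the pools, at 5582 and 5213 RPM in Perfect and 6182 and 3969 RPM in Bulge (exact permutation p = 1). The Perfect pool therefore held more of the pieces that reach position 20. This was not particular to the included fragments. Of 42610 and 79969 RPM starting at -33 in Perfect, 28074 and 59838 RPM ended at 20. In Bulge 4242 and 1733 of 19423 and 15452 RPM did. For the cut start -9 these were 18705 and 15035 of 19665 and 15929 RPM in Perfect. In Bulge they were 9.55 and 1.39 of 79.6 and 45.2 RPM. The sum of the included fragments ending anywhere else joins parts that differed in opposite directions. Those starting at 0 or earlier stood at 5533 and 5149 RPM in Perfect, against 3087 and 2989 RPM in Bulge, a ratio of 1.76 with no overlap (exact permutation p = 0.333), and those starting at 1 or later are given further on.

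The starts were grouped into 5 windows along the target, and each window was compared over the libraries by the same test. The 581 fragments starting from -32 to -13, on the 5′ side of the cut, summed to 13368 and 14367 RPM in Perfect, against 2737 and 2763 RPM in Bulge, a ratio of 5.04. As a share of the plus-strand total this window overlapped between the pools, with a log2 ratio of -0.063 (exact permutation p = 1). The 54 fragments starting just before the cut, from -12 to -10, summed to 8800.3 and 7963 RPM in Perfect, against 316 and 252 RPM in Bulge, a ratio of 29.5. The 42 fragments starting just after it, from -8 to -6, summed to 6473 and 5405 RPM in Perfect, against 140.3 and 35.6 RPM in Bulge, a ratio of 67.5. In each of these windows both Perfect libraries lay above both Bulge libraries, and the ratio was larger in the windows next to the cut.

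Further toward the 3′ end the ratio of the sums was larger still for starts from -5 to 0, and the direction turned for starts at 1 or later. The 46 fragments starting from -5 to 0, opposite the first nucleotides of the piRNA, summed to 14681 and 10791 RPM in Perfect, against 255 and 29.1 RPM in Bulge, a ratio of 89.5. The larger ratio did not hold for every read end, a split chosen after the values were seen. For fragments ending at 20 the ratio was 507 for starts from -8 to -6 and 388 for -5 to 0. For ends 18 and 19 these were 3.37 and 1.90. For ends 1 to 17 they were 6.90 and 51.5, where Bulge held 4.95 and 1.54 RPM for starts from -5 to 0. The 21 fragments starting at 1 or later lay wholly in the common 3′ sequence and summed to 499 and 329.5 RPM in Perfect, against 3704 and 1106 RPM in Bulge. Of the 5 windows this was the one whose sum was higher in Bulge, by a ratio of 5.80 of the Bulge mean over the Perfect mean. They made up 1.14% and 0.848% of the fragment signal in Perfect, against 51.8% and 26.4% in Bulge. A read of this kind matches every target of its pool, so it cannot be tied to a piRNA. The exact permutation p was 0.333 in all 5 windows, and 0.333 adjusted over them. Starts of 0 or less taken alone summed to 43323 and 38527 RPM in Perfect, against 3449 and 3080.1 RPM in Bulge, a ratio of 12.5.

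The Bulge libraries differed from each other in the last 3 windows. Bulge library 1 stood at 3.35 times library 2 for starts at 1 or later and at 1.12 times for starts of 0 or less. Without Bulge library 1 the log2 ratio of Perfect to Bulge was 7.38 for starts from -8 to -6, against 6.08 with all libraries, and 8.77 for starts from -5 to 0, against 6.48. Without Bulge library 2 these were 5.40 and 5.64. For starts at 1 or later the log2 ratio was -2.54 with all libraries, -1.42 without Bulge library 1 and -3.16 without Bulge library 2.

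Single starts were tested by limma on log2(RPM + 0.5) summed per start, with Benjamini-Hochberg adjustment over all 40 starts. The log2 differences given are Perfect minus Bulge on this scale, which understates the change at low values. Of the 38 included starts, 31 were called higher and 2 lower in Perfect at an adjusted p under 0.05, where 82.5% of all 40 starts were called higher and 5.00% lower. The median log2 difference over the included starts was 1.80, and over all 40 starts it was also 1.80. Without Perfect library 1 limma called 23 included starts higher and 0 lower, without Perfect library 2 it called 20 and 0, and without Bulge library 2 it called 32 and 5. The 0 lower calls stood beside 24 included starts, in either direction, at an unadjusted p under 0.05 in each of those fits. When every library was rescaled to its own plus-strand total, 12 included starts were called higher and 5 lower, where 32.5% of all starts were higher and 12.5% lower. The 12 were the starts from -13 to -1 other than the cut start, and all 12 had also been called higher without rescaling.

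Upstream of the cut, each start from -25 to -11 stood above the start before it in both Perfect libraries, and from -32 to -26 there was no such order. This stretch and starts -32, -19 and -18 were chosen after their values were seen. Start -32 stood at 329 and 478 RPM in Perfect, against 119.5 and 119 RPM in Bulge. Start -19 stood at 706 and 779 RPM in Perfect, against 216 and 190.1 RPM in Bulge. Start -18 stood at 1025 and 1053 RPM in Perfect, against 146 and 121 RPM in Bulge. Between -19 and -18 the level went up by a factor of 1.45 and 1.35 in the Perfect libraries and came to 0.675 and 0.636 times that of -19 in the Bulge libraries, so the pools went opposite ways there. The log2 difference was 1.87 (SE 0.16, limma adjusted p = 0.00418) at -19 and 2.96 (SE 0.17, limma adjusted p = 0.00169) at -18. None of the 3 starts was called after rescaling to the plus-strand total, with log2 differences of -0.65 at -32, -0.51 at -19 and 0.58 at -18 (limma adjusted p = 0.216, 0.281 and 0.235).

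Closer to the cut the Perfect levels were higher still, and the Bulge levels were not. Start -13, opposite piRNA nucleotide 14, stood at 1680.0 and 1672 RPM in Perfect, against 126 and 105 RPM in Bulge. Start -12 stood at 2106 and 2065 RPM in Perfect, against 117 and 105 RPM in Bulge. Start -11 stood at 3218 and 2988 RPM in Perfect, against 119 and 99.9 RPM in Bulge. These 3 starts differed by 3.86, 4.23 and 4.82 on the log2 scale (SE 0.17, 0.14 and 0.17, limma adjusted p = 0.00091 for each). They remained higher in Perfect after rescaling to the plus-strand total, by 1.48, 1.85 and 2.44.

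The starts on either side of the cut were each well below the cut start itself in Perfect. Start -10, 1 base upstream, stood at 3476 and 2910.2 RPM in Perfect, against 80.4 and 47.0 RPM in Bulge. That was 17.7% and 18.3% of the level of start -9 in the Perfect libraries, and 101% and 104% in the Bulge libraries. Start -8, 1 base downstream, stood at 2429.6 and 2057 RPM in Perfect, against 60.0 and 18.8 RPM in Bulge. The cut start thus stood above both neighbours in Perfect, while in Bulge it did not stand above its upstream neighbour. The log2 difference was 5.68 (SE 0.35, limma adjusted p = 0.00193) at -10 and 6.03 (SE 0.69, limma adjusted p = 0.00661) at -8.

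Levels then dipped before a further maximum at starts -5 to -3. Start -7 stood at 2187 and 1853 RPM in Perfect, against 45.3 and 12.0 RPM in Bulge. Start -6 stood at 1857 and 1495 RPM in Perfect, against 35.1 and 4.77 RPM in Bulge. Start -5 stood at 3487 and 2654 RPM in Perfect, against 45.8 and 7.93 RPM in Bulge, and start -4 was close to it at 3533 and 2641 RPM in Perfect, against 46.0 and 5.51 RPM in Bulge. These 4 starts were called higher in Perfect, with log2 differences from 6.39 to 7.51 and limma adjusted p from 0.00729 to 0.0113. These 4 calls, and that of start -8, were lost without Perfect library 1 or without Perfect library 2, where the adjusted p lay from 0.0828 to 0.129. Starts -5 and -4 did not differ beyond the spread of the Perfect libraries.

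Start -3, opposite piRNA nucleotide 4, was the highest of the 38 included starts in both Perfect libraries. It stood at 4891 and 3689 RPM in Perfect, against 40.8 and 3.30 RPM in Bulge. It reached 24.9% and 23.2% of the level of the cut start in the Perfect libraries, and 51.2% and 7.32% in the Bulge libraries. The next start, -2, was lower by a factor of 4.38 and 4.65 in Perfect, at 1117 and 793 RPM, against 27.8 and 3.23 RPM in Bulge. The profile in Perfect therefore took a sharp step down from -3 to -2, and in Bulge the factor between the same starts was 1.47 and 1.02. Starts -3 and 3 were named with earlier results of these data known, so their p-values are not those of positions set beforehand. The log2 difference at -3 was 8.41 (SE 1.41, limma adjusted p = 0.0118), and leaving out each library in turn gave 6.69 to 10.13. Without Perfect library 1 the adjusted p was 0.130, and without Perfect library 2 it was 0.121. Start -2 was called higher too (log2 difference 6.52, SE 1.21, limma adjusted p = 0.0151), with an adjusted p of 0.147 without Perfect library 1 and 0.132 without Perfect library 2.

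The last starts inside the piRNA-complementary part were less abundant than start -3, though start -1 stood above start -2 in both Perfect libraries. Start -1 stood at 1329.6 and 838 RPM in Perfect, against 42.1 and 3.08 RPM in Bulge, and was called higher (log2 difference 6.42, SE 1.48, limma adjusted p = 0.0259). Its adjusted p was 0.19 without Perfect library 1 and 0.17 without Perfect library 2. Start 0 stood at 324 and 177 RPM in Perfect, against 53.0 and 6.09 RPM in Bulge, and was not called (log2 difference 3.67, SE 1.28, limma adjusted p = 0.0703), but was called without either Bulge library. Both starts were chosen after their values were seen. For the starts from -8 on, the log2 difference shifted by 0.66 to 1.79 when the library that mattered most was left out, against 0.03 to 0.38 for the starts from -32 to -10, so the sizes near the 3′ end are less sure.

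Starts in the common 3′ sequence had another order. Start 3 stood at 24.0 and 17.5 RPM in Perfect, against 1455 and 581 RPM in Bulge, where it was the highest of the 38 starts in both libraries. It was called lower in Perfect, with a log2 difference of -5.46 (SE 0.58, limma adjusted p = 0.00649), and leaving out each library in turn gave -6.12 to -4.79. The adjusted p was 0.0673 without Perfect library 1 and 0.0792 without Perfect library 2. Start 2 stood at 5.19 and 3.61 RPM in Perfect, against 314 and 55.9 RPM in Bulge, and was also called lower (log2 difference -4.78, SE 1.03, limma adjusted p = 0.0223). Its adjusted p was 0.155 without Perfect library 1 and 0.172 without Perfect library 2.

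Starts 4 and 5 had lower values in both Perfect libraries without reaching the threshold. They and start 1 were chosen after their values were seen. Start 4 stood at 184 and 143 RPM in Perfect, against 1031 and 284 RPM in Bulge (log2 difference -1.74, SE 0.78, limma adjusted p = 0.12). Start 5 stood at 96.7 and 66.8 RPM in Perfect, against 642 and 142 RPM in Bulge (log2 difference -1.90, SE 0.91, limma adjusted p = 0.134). After rescaling to the plus-strand total both were called lower, as they were without Bulge library 2, and start 4 also without Bulge library 1. Start 1 overlapped between the pools, at 182 and 92.3 RPM in Perfect and 225 and 40.0 RPM in Bulge. In Perfect start 4 stood above start 3, and in Bulge start 3 stood above start 4 in both libraries. No fragment shorter than 15 nt was listed, so starts 3, 4 and 5 were sums over 4, 3 and 2 fragments.

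Read ends were tested in the same way, over 39 ends. The fit gave every end 1 common spread (SE 0.39), so an end whose libraries disagreed more than most has a p that is too small. Of the 38 included ends 12 were called higher and 5 lower in Perfect, where 33.3% of all ends were called higher and 12.8% lower. The median log2 difference was 0.42 over the included ends and 0.44 over all 39. Without Perfect library 1 the included ends gave 7 higher and 3 lower, and without Perfect library 2 they gave 9 and 3. After rescaling to the plus-strand total 3 were called higher (ends 14, 15 and 20) and 29 lower, where 7.69% of all ends were higher and 74.4% lower. Ends -4, 5 and 13 were higher before rescaling and lower after it.

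Position 20 and the ends just before it behaved differently in the pools. End 20 stood at 38239.9 and 33643 RPM in Perfect, against 971 and 217 RPM in Bulge (log2 difference 6.29, limma adjusted p = 1.28e-24). With a mean-variance trend in the fit its SE was 1.60 and its adjusted p 0.000589. End 19, 1 base short of it, stood at 987 and 1142 RPM in Perfect and at 2983 and 1076 RPM in Bulge, and was not called (limma adjusted p = 0.118), but was called lower without Bulge library 2 (0.000551). End 18 stood at 247 and 283 RPM in Perfect, against 949 and 397 RPM in Bulge, and was called lower (log2 difference -1.22, limma adjusted p = 0.00801). End 18 lost its call without Perfect library 1, Perfect library 2 or Bulge library 1 (limma adjusted p = 0.218, 0.113 and 0.102) and with the trend (0.0589). End 19 was the commonest included end in both Bulge libraries, with 41.7% and 25.7% of the fragment signal, against 2.25% and 2.94% in Perfect. End 20 was the commonest in both Perfect libraries.

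Ends in the middle of the common sequence also split. End 15 stood at 378 and 379 RPM in Perfect, against 22.5 and 12.8 RPM in Bulge (log2 difference 4.44, limma adjusted p = 1.09e-16). End 12 stood at 429.7 and 359 RPM in Perfect, against 113 and 132 RPM in Bulge (log2 difference 1.69, limma adjusted p = 0.000178), and lost its call without Perfect library 1 (0.0582). After rescaling to the plus-strand total its log2 difference was -0.69 and was not called. End 11 stood at 389.6 and 280.2 RPM in Perfect, against 43.0 and 44.0 RPM in Bulge. Ends 14 and 17 were likewise called higher, with log2 differences of 3.95 and 2.92. Ends 11 and 17 lost their calls after rescaling to the plus-strand total, and ends 14 and 15 did not.

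Ends 3, 6, 7 and 9 went the other way. End 7 stood at 38.8 and 40.2 RPM in Perfect, against 197 and 293 RPM in Bulge (log2 difference -2.59, limma adjusted p = 3.02e-08). End 9 stood at 81.2 and 81.0 RPM in Perfect, against 179 and 405 RPM in Bulge (log2 difference -1.73, limma adjusted p = 0.000134). Ends 3 and 6, named after their values were seen, were also called lower, with log2 differences of -1.12 and -2.57. End 3 lost its call without Perfect library 1 (limma adjusted p = 0.184) and without Perfect library 2 (0.22). End 4 stood at 264 and 196 RPM in Perfect, against 143 and 152 RPM in Bulge, and was not called (limma adjusted p = 0.218). After rescaling to the plus-strand total its log2 difference was -1.75. These ends lie in the sequence that differs between the pools.

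Ends inside the piRNA-complementary part differed little in RPM. The 181 fragments ending at 0 or earlier summed to 924 and 722 RPM in Perfect and to 726 and 613 RPM in Bulge, with overlap (exact permutation p = 0.667). Of the 18 such ends limma called 1, end -4, which stood at 95.1 and 74.7 RPM in Perfect, against 46.3 and 34.1 RPM in Bulge. Its call was lost without Perfect library 1 (limma adjusted p = 0.346) and without Perfect library 2 (0.133). End -11, 1 base short of the cut end, stood at 76.2 and 50.6 RPM in Perfect, against 46.5 and 35.8 RPM in Bulge. End -9, 1 base past it, stood at 67.2 and 53.9 RPM in Perfect, against 47.4 and 34.7 RPM in Bulge. Neither was called (limma adjusted p = 0.237 and 0.268). After rescaling to the plus-strand total, all 18 of these ends were called lower in Perfect.

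Each start and end pair was tested over the fragments of both strands that reached 1 RPM in at least 2 libraries. Of the 744 included fragments 726 passed. Of these 274 were called higher and 87 lower in Perfect, where 49.3% of all 1095 fragments tested were called higher and 11.5% lower. The median log2 difference was 0.64 over the included fragments tested, and 1.18 over all fragments tested. Without Perfect library 1 the calls were 69 higher and 21 lower, and without Perfect library 2 they were 83 and 18. After rescaling to the plus-strand total 95 were higher and 354 lower, where 26.8% of all fragments were higher and 41.5% lower. Of all 744 included fragments, 403 had both Perfect libraries above both Bulge libraries and 153 had both below, where 61.1% and 18.4% of all 1204 fragments did.

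The calls depended on where a fragment ended. Of the 38 fragments ending at 20, 33 were called higher and 2 lower, and 31 and 4 after rescaling to the plus-strand total. Of the 436 tested fragments ending from 1 to 17, 214 were called higher and 71 lower, and 64 and 184 after rescaling. Of the 179 tested fragments ending at 0 or earlier, 11 were called higher and 2 lower, and 166 were not called, and after rescaling 121 were lower. Among starts at 1 or later, 12 of 18 tested fragments were called lower and 2 higher, and 16 were lower after rescaling. Of the 87 fragments called lower without rescaling, 66 were among the 575 tested fragments starting from -32 to -13, where 177 were called higher. Another 9 were among the 54 tested fragments starting from -12 to -10, where 33 were called higher. Of all 1095 fragments tested, 49.3% were called higher and 11.5% lower. After rescaling these shares were 26.8% and 41.5% of all fragments tested. For ends from 1 to 17, the share called higher without rescaling and the share called lower after it lay near those of all fragments. On both scales, most called fragments ending at 20 were higher in Perfect and most called fragments starting in the common sequence were lower. The windows of read ends were chosen after the values were seen.

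By mean RPM over the 4 libraries, a ranking set by Perfect, the most abundant single fragments ended at the 3′ end of the target. In both Bulge libraries the most abundant was the fragment from 3 to 19, given further on. The 24-nt fragment from -3 to 20 stood at 4809 and 3582 RPM in Perfect, against 7.63 and 0 RPM in Bulge. It was called higher, with a log2 difference of 11.01 (SE 1.15, limma adjusted p = 0.000176). The 25-nt fragment from -4 to 20 stood at 3444 and 2544 RPM in Perfect, against 7.29 and 0.147 RPM in Bulge. The 26-nt fragment from -5 to 20 stood at 3369 and 2524 RPM in Perfect, against 8.87 and 0.661 RPM in Bulge. These 3 pieces lack the first 6, 5 and 4 bases of the 3′ cleavage product from -9 to 20, which itself stood at 18705 and 15035 RPM in Perfect, against 9.55 and 1.39 RPM in Bulge.

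Longer pieces that span the cut and reach the 3′ end were also abundant in Perfect. The 31-nt fragment from -10 to 20 stood at 3217 and 2679 RPM in Perfect, against 6.87 and 0.0734 RPM in Bulge, the last value being 1 read. The 32-nt fragment from -11 to 20 stood at 2844 and 2658 RPM in Perfect, against 11.1 and 1.98 RPM in Bulge. The other 5 of the 10 most abundant fragments started at -13, -12, -8, -7 and -6 and also ended at 20. The 10 were ranked by mean RPM over the 4 libraries, which the Perfect values dominated, so their direction was largely set by the choice. Every one of the 10 was called higher in Perfect, with log2 differences from 8.24 to 11.01 and limma adjusted p from 4.14e-05 to 0.000192. In each of them both Bulge libraries held 11.1 RPM or less, and Bulge library 1 exceeded Bulge library 2.

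The fragments called lower in Perfect by most all started in the common sequence and stopped 1 or 2 bases before its end. The 17-nt fragment from 3 to 19 stood at 1.99 and 0.385 RPM in Perfect, against 911 and 440.3 RPM in Bulge (log2 difference -8.74, SE 0.61, limma adjusted p = 2.38e-05). The fragment from 3 to 18 stood at 0.569 and 0.538 RPM in Perfect, against 321 and 74.2 RPM in Bulge. The fragment from 2 to 19 stood at 0.213 and 0.538 RPM in Perfect, against 189 and 39.3 RPM in Bulge. The fragment from 1 to 19 stood at 1.92 and 1.69 RPM in Perfect, against 142 and 28.6 RPM in Bulge.

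The fragment from 2 to 18 was at 0 in both Perfect libraries, against 38.4 and 6.61 RPM in Bulge, and so was at least 101-fold lower in Perfect when 3 reads per library are allowed. Fragments from the same starts that reach position 20 behaved otherwise. Those starting at 1 or later and ending at 20 summed to 450.3 and 266 RPM in Perfect and to 609.9 and 126 RPM in Bulge, with overlap (exact permutation p = 1). Those ending at 18 or 19 summed to 39.5 and 54.2 RPM in Perfect, against 3049.8 and 974 RPM in Bulge. The excess of starts in the common sequence in Bulge was thus made of pieces ending short of position 20.

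The share of each start that reached position 20 varied along the target in Perfect. It was 56.8% and 68.9% at start -32, 82.8% and 85.2% at start -13, 92.6% and 92.1% at start -10 and 98.3% and 97.1% at start -3 in the Perfect libraries. In Bulge it was 15.1% and 5.88% at start -32, 8.02% and 1.47% at start -13, 8.55% and 0.156% at start -10 and 18.7% and 0% at start -3. At each of these 4 starts both Perfect libraries lay above both Bulge libraries.

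Read lengths followed from the starts and ends. The median fragment, weighted by RPM, was 29 and 31 nt long in Perfect, against 18 and 24 nt in Bulge. The 5 lengths of highest mean over the 4 libraries, a ranking set by Perfect, were 24, 25, 26, 31 and 32 nt. In both Bulge libraries the commonest lengths were 15, 16 and 17 nt. No plus-strand fragment shorter than 15 nt was listed, so shorter pieces do not enter these lengths or the medians. Fragments of 17 nt held 16.7% and 13.1% of the fragment signal in Bulge, against 0.729% and 0.604% in Perfect. Fragments of 24 nt stood at 5132 and 3851 RPM in Perfect, against 151 and 151 RPM in Bulge, or 11.7% and 9.91% of the fragment signal in Perfect, against 2.11% and 3.61% in Bulge. Fragments of 31 nt stood at 3458 and 2919 RPM in Perfect, against 95.8 and 86.1 RPM in Bulge. The 10 highest fragments of each library held 61.6% and 57.3% of the signal in Perfect, against 47.9% and 26.3% in Bulge. The 5 highest held 40.4% and 36.0% in Perfect and 37.1% and 21.5% in Bulge, and the single highest held 11.0% and 9.22% in Perfect and 12.7% and 10.5% in Bulge, both with overlap.

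The Perfect libraries resembled each other more than the Bulge libraries did. Across the 726 tested fragments, log2(RPM + 0.5) correlated at a Pearson r of 0.974 between the Perfect libraries, against 0.750 between the Bulge libraries. Between libraries of different pools r lay from -0.107 to 0.227. Fragments that share a start or an end overlap in sequence and are not independent, so these values describe the libraries and carry no test.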

How the data were processed

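Values were RPM (reads scaled to a common library size) per strand, read start and read end, deposited by the authors for 4 slicing libraries of a series of 27 samples, and the total behind the RPM is not given in the sources used here. Per the labels' protocols, small RNA libraries were read as 50-nt pairs and each pool's reads were matched to that pool. Tools named in the submitters' processing notes carry no role here. Of the values, 62.5 to 92.7% were whole reads within 0.01 reads, so no count test was used.

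The members, windows and lists were chosen with earlier results of these data known. RPM were tested with limma 3.58.1 in R 4.3.3 on log2(RPM + 0.5), for fragments of at least 1 RPM in at least 2 libraries, with Benjamini-Hochberg adjustment over all fragments, starts or ends and a threshold of 0.05. Sums were compared by an exact two-sided permutation test over libraries (SciPy 1.17.1). Alternatives changed the pseudocount, filter, scaling, trend, replicate block and libraries.

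Named positions were starts -3 and 3, the starts next to the cut, the 10 starts, ends and fragments of highest mean RPM, the 5 lengths of highest mean RPM, and the 5 starts and fragments of largest called difference in each direction with at least 10 RPM in 1 pool. Exceptions are stated where they occur.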

Additional observations from a re-analysis of the deposited data

How the results depend on the processing

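Changing the pseudocount to 0.1 or 5 RPM, or the filter to none or to 5 RPM, kept every count of calls within 1.5 times, and so did a trend in the fit. With libraries rescaled to the plus-strand total, or to that total without cut fragments, fragments called higher were 95 and 104 and lower 354 and 307, starts higher 12 and 12 and lower 5 and 5, and ends higher 3 and 3 and lower 29 and 28. The log2 ratio of the summed fragments was 0.54 and 0.80. By window it was -0.063 and 0.19 for starts -32 to -13, 2.53 and 2.79 for -12 to -10, 3.84 and 4.10 for -8 to -6, 4.30 and 4.57 for -5 to 0, and -4.77 and -4.50 for 1 or later. End 12 changed sign, to -0.69 and -0.45, and so did end 4, to -1.75 and -1.51. Of these, only both ends turned sign in both settings. The first window turned sign with the plus-strand total alone, at a value close to no difference. By construction, rescaling removes the difference of 2.38 between the plus-strand totals.

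Leaving out each library gave 69 to 370 fragments higher and 18 to 125 lower, 20 to 34 starts higher and 0 to 5 lower, and 7 to 15 ends higher and 3 to 6 lower. The log2 difference lay from 6.69 to 10.13 at start -3 and from -6.12 to -4.79 at start 3. The log2 ratio lay from 2.53 to 3.30 for the summed fragments, 2.28 to 2.39 for starts -32 to -13, 4.73 to 5.06 for -12 to -10, 5.40 to 7.38 for -8 to -6, 5.64 to 8.77 for -5 to 0, and -3.16 to -1.42 for 1 or later. A pool left with 1 library was assumed to vary like the other pool. In alternatives chosen after seeing the data, the log2 ratio of the summed fragments was 3.65 without starts at 1 or later and 3.57 for fragments of at least 18 nt. The window before -33 held no fragment and gave no value.

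The labels tie same-numbered libraries of the 2 pools by number only, and whether they shared a batch was not tested. Their deviations from the pool means correlated at -0.02 over 1095 fragments, a value that weighs abundant and rare fragments alike. For the summed fragments library 1 stood at 1.13 times library 2 in Perfect and at 1.71 times in Bulge. With the replicate number as a block, 277 fragments were higher and 94 lower, 32 starts higher and 2 lower, and 12 ends higher and 5 lower. With 2 libraries per pool no permutation test of a sum could pass 0.05, and at 13001408 to 14549950 reads a value of 0 allows up to 0.206 to 0.231 RPM.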
